A study of Homo sapiens with 18 samples.

Results

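The difference of differences between MondoA knockdown and doxorubicin (DXR) was measured in RPE-1 cells, a human retinal pigment epithelial line immortalized with hTERT. Of the 18 libraries of the series, 12 in 4 groups of 3 entered this difference: siMondoA with DXR, siMondoA untreated, siControl with DXR and siControl untreated. siMondoA targets MLXIP, the gene of MondoA, and siControl is the control siRNA, whose library names carry the tag siLuci. All groups were transfected with siRNA in Lipofectamine RNAiMax for 2 days, and the DXR groups then received DXR at 150 ng/ml for 3 days. The 6 remaining libraries, siMlx with and without DXR, served the shared estimate of spread and a comparison at the end. Untreated libraries also carry the tag D0 and DXR libraries the tag D5, which the labels do not explain. The DXR response and any difference in harvest day therefore cannot be told apart. Nor can the interaction be told apart from any change of the knockdown effect with time since transfection. The labels do not give the siRNA sequences, their number, or whether replicates were separate cultures, and p-values therefore measure the spread between these libraries. In these bulk samples, fewer cells of a type and less RNA per cell cannot be told apart.

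MondoA is a basic helix-loop-helix leucine zipper transcription factor that binds DNA as a dimer with MLX at carbohydrate response elements, and its activity follows glucose metabolites in the cell. TXNIP, which encodes a protein that restrains glucose uptake, and its relative ARRDC4 are its best known targets. Doxorubicin poisons topoisomerase II and causes DNA double-strand breaks; cells that survive activate p53, stop dividing and can become senescent. Damaged cells can also switch on interferon-stimulated genes, whose promoters carry the interferon-stimulated response element.

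The 12 libraries held 15503423 to 29219280 counts, and 13676 of 33121 listed genes passed the low-count filter and were tested. Libraries of a group correlated at 0.9901 or above, and replicate libraries differed by more than counting error in every pair, with a chi-square per degree of freedom of 3.75 to 16.36. Levels are given in CPM, the count relative to the scaled library total, and every log2 fold change comes from one fit of all libraries. A gene's DXR response is its log2 fold change of DXR over untreated cells. The interaction is the DXR response with siMondoA minus the DXR response with siControl, so a positive value means a more positive response with siMondoA. Genes passed the test at an adjusted p under 0.05 (edgeR's quasi-likelihood test, Benjamini-Hochberg adjustment over all tested genes). Of 18 pigment epithelium markers, 7 were over 1 CPM in untreated siControl cells, KRT8, KRT18, SOX9 and MITF among them, while RPE65, RLBP1, TYR and TTR had at most 6 counts in any of the 12 libraries. Of 12 fibroblast markers 7 were also over 1 CPM. The 13 blood and endothelial markers, 2 of them at 0 in every library, summed to 3.90 to 8.22 CPM.

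MLXIP (chromosome 12, 122078722 to 122147347, GRCh38) was at 1.63, 2.58 and 2.86 CPM in siMondoA DXR libraries and at 3.34, 4.57 and 3.63 CPM in untreated siMondoA libraries, against 64.04, 63.2 and 66.6 CPM in siControl DXR libraries and 69.5, 72.9 and 63.7 CPM in untreated siControl libraries. All 6 siMondoA libraries were far below all 6 siControl libraries, and within siMondoA the DXR libraries were the lower ones. The interaction of MLXIP was -0.63 (SE 0.20, edgeR adjusted p = 0.0469), a call that ended in 9 of the 12 fits that left out 1 library and with the 12 libraries fitted alone (adjusted p = 0.0711), and on the CPM scale the same difference had the opposite sign, at 2.61 CPM. MLX did not pass (interaction -0.18, adjusted p = 0.209), and it was higher with siMondoA in both conditions, by 0.72 in DXR and 0.91 in untreated cells. TXNIP was at 4.16, 3.85 and 4.85 CPM in siMondoA DXR libraries and 1.39, 1.26 and 0.907 CPM in untreated siMondoA libraries, against 52.5, 66.7 and 69.8 CPM in siControl DXR libraries and 10.9, 10.95 and 17.6 CPM in untreated siControl libraries. DXR raised TXNIP with either siRNA, by 1.83 with siMondoA and 2.25 with siControl, and the interaction did not pass (-0.42, SE 0.47, adjusted p = 0.642). ARRDC4 had 20 counts in siMondoA DXR libraries and 1 in untreated siMondoA libraries, against 73 in siControl DXR libraries and 3 in untreated siControl libraries, and no fold is given for it.

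The main question was how loss of MondoA changed the transcriptional response to DXR. Of the 13676 tested genes, 1384 (10.1%) passed the interaction test, 798 higher (5.84%) and 586 lower (4.28%). At a size of at least 1 on the log2 scale 123 were higher (0.899%) and 50 lower (0.366%). The higher share of calls was 57.7%, but it was 45.4% with upper-quartile scaling (655 higher, 788 lower) and 67.7% with the 12 libraries fitted alone (909 higher, 433 lower), so the balance between directions depended on these choices. Upper-quartile scaling moved the median interaction of all genes to -0.045. Without untreated siMondoA replicate 1 the total was 918, and without siControl DXR replicate 2 it was 978, with 316 lower. In all 12 fits that left out 1 library, 692 of the 1384 genes passed (423 higher, 269 lower). DXR itself changed 7407 genes (54.2%) with siMondoA, 26.2% higher and 28.0% lower, and 7756 (56.7%) with siControl, 28.1% higher and 28.6% lower. The knockdown changed 3390 genes (24.8%) in DXR, 10.9% higher and 13.9% lower, and 6375 (46.6%) in untreated cells, 23.3% in each direction. All these counts come from fits without a term for the replicate number. With such a term, a replicate block, 1818 genes passed the interaction test (1016 higher, 802 lower).

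**Figure D1:**
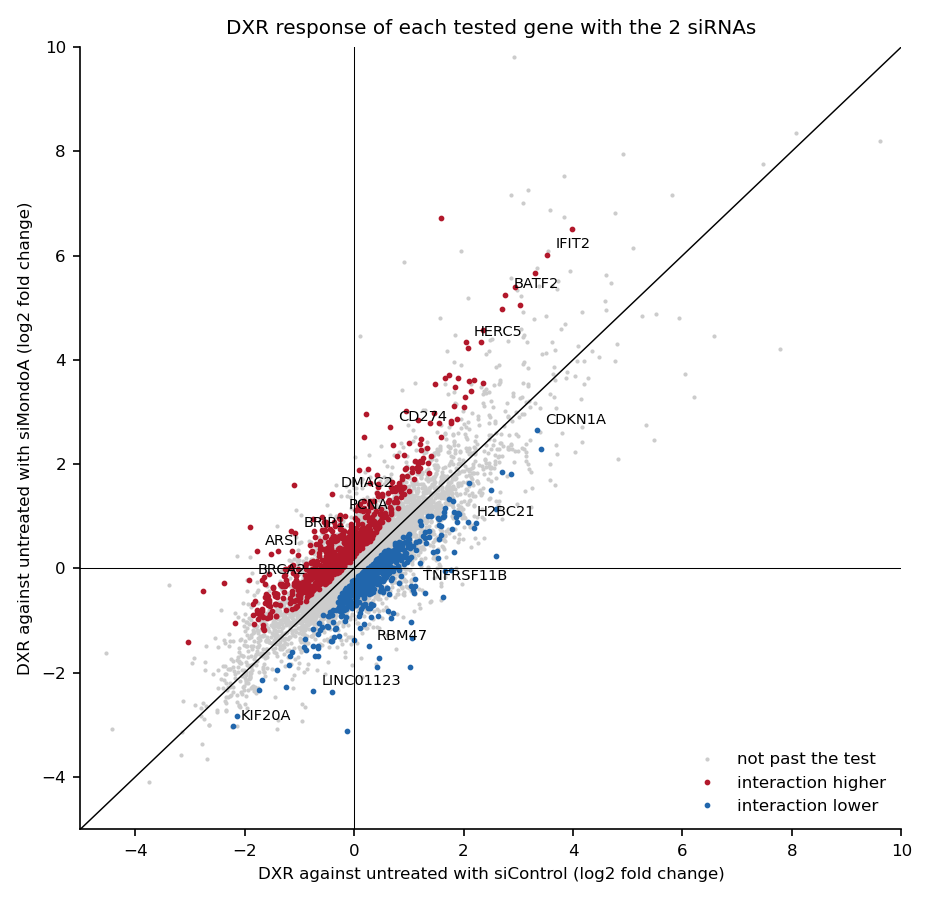
Each point is 1 tested gene, with its DXR response with siMondoA on the y axis and with siControl on the x axis (log2 fold changes); genes on the diagonal responded alike in the fit. The 798 genes past the test above the diagonal are red and the 586 below it are blue; IFIT2 and BATF2 lie high on the right and HERC5 and CD274 above the line, while CDKN1A, H2BC21 and TNFRSF11B lie under it.

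Genes past the test fell into 3 classes by their fitted responses. In 459 (33.2%) the response had the same sign and was smaller with siMondoA, in 371 (26.8%) it had the same sign and was larger with siMondoA, and in 554 (40.0%) the signs were opposite. The first class shrank to 260 without untreated siMondoA replicate 2, to 265 without its replicate 1, to 272 without untreated siControl replicate 3 and to 302 without siMondoA DXR replicate 2, and the second to 246 without untreated siControl replicate 1. Both responses passed in 147 of the genes with opposite signs: 91 were raised by DXR with siMondoA and lowered with siControl, and 56 were lowered with siMondoA and raised with siControl. Read along the knockdown, 696 of the 798 higher genes had passed as lower with siMondoA in untreated cells, and 358 passed as lower in DXR. Of the 586 lower genes, 545 passed as higher with siMondoA in untreated cells and 179 passed as higher in DXR. The untreated effect is itself a term of the interaction, and these counts describe the 4 groups and are not separate evidence.

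Of the 46 tested interferon-stimulated genes, DXR raised 46 with siMondoA and 45 with siControl, and 17 rose more with siMondoA. DXR raised 26.2% of all tested genes with siMondoA and 28.1% with siControl. The list holds 47 genes. The tested members' interactions were all positive; 17 passed as higher and none as lower, against 5.84% of all tested genes higher. The list's median interaction was 1.03, with a median over all genes of -0.0084, and the median DXR response was 3.35 with siMondoA and 1.95 with siControl. The median effect of siMondoA was 0.76 in DXR, where 25 members passed as higher and none as lower. Among all tested genes 10.9% passed as higher and 13.9% as lower there. In untreated cells the median effect was -0.38, and none of the 46 passed as higher and 7 as lower. Both counts are under the 23.3% of all tested genes that passed in each direction in untreated cells. Relative to the untreated siControl mean, the list's mean log2 level was 2.88, 2.75 and 3.21 in siMondoA DXR libraries, -0.44, 0.097 and -0.65 in untreated siMondoA libraries, 2.38, 1.74 and 2.12 in siControl DXR libraries, and 0.62, -0.23 and -0.39 in untreated siControl libraries. Each siMondoA DXR library was above each siControl DXR library, and the untreated groups overlapped. Replicate 1 of untreated siControl stood highest in its group, and without it 3 members passed (2 when untreated siMondoA replicate 3 was left out as well). Likewise 7 and 8 members passed without siControl DXR replicate 2 or 3, 6 without siMondoA DXR replicate 3, and 6 and 7 without untreated siMondoA replicate 1 or 3. DESeq2 called 8. IFIT2, IFIT3 and HERC5 passed in all 12 of these fits.

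IFIT2 (chromosome 10, 89283694 to 89309276), which encodes an antiviral protein that acts on viral RNA and translation, was at 1145, 979 and 1499 CPM in siMondoA DXR libraries and 15.9, 22.3 and 17.2 CPM in untreated siMondoA libraries. With siControl it was at 345, 208 and 261 CPM in DXR libraries and 31.5, 21.6 and 16.95 CPM in untreated libraries. The DXR libraries did not overlap between the siRNAs, and the untreated ones did. Its DXR response was 6.02 with siMondoA and 3.53 with siControl, giving an interaction of 2.49 (SE 0.29, edgeR adjusted p = 2.74e-05). HERC5 (chromosome 4, 88457117 to 88506163), the main ligase for the ubiquitin-like ISG15, was at 85.8, 75.02 and 108 CPM in siMondoA DXR libraries and 3.73, 5.497 and 3.75 CPM in untreated siMondoA libraries, against 48.1, 29.5 and 30.2 CPM in siControl DXR libraries and 13.6, 6.26 and 5.81 CPM in untreated siControl libraries. siMondoA placed HERC5 above siControl in DXR and below it in untreated cells, with no overlap in either condition (interaction 2.30, SE 0.40, adjusted p = 0.00123). MX1, an antiviral GTPase, was at 23.8, 16.9 and 22.4 CPM in siMondoA DXR libraries and 0.334, 0.797 and 0.242 CPM in untreated siMondoA libraries, against 12.7, 5.63 and 6.71 CPM in siControl DXR libraries and 1.57, 1.12 and 0.541 CPM in untreated siControl libraries (interaction 2.46, SE 0.60, adjusted p = 0.0124). The 17 called members ranged from 0.76 (SP110) to 2.52 (OASL). The oligoadenylate synthetases OAS1 (2.26), OAS2 (2.35) and OAS3 (1.74), which activate RNase L, and OASL were among them. So were the RNA sensors IFIH1 (1.27) and DHX58 (0.94), and USP18 (2.01), which removes ISG15 and dampens the interferon receptor. SAMD9, an antiviral host factor, had an interaction of 1.27 (SE 0.31, adjusted p = 0.0130). Without untreated siControl replicate 1, MX1 stood at 2.01 (adjusted p = 0.0756) and SAMD9 at 0.99 (adjusted p = 0.057).

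Among the 12 genes with the largest higher interactions that passed in every fit leaving out 1 library, BATF2, GCH1, CD274 and C3AR1 are outside this list and are known to be inducible by interferon or other inflammatory signals. CD274 (chromosome 9, 5450503 to 5470566) encodes the immune checkpoint ligand PD-L1. It was at 49.6, 33.9 and 54.5 CPM in siMondoA DXR libraries and 7.51, 6.92 and 6.65 CPM in untreated siMondoA libraries, against 44.5, 30.3 and 39.1 CPM in siControl DXR libraries and 28.8, 23.02 and 20.1 CPM in untreated siControl libraries. DXR brought CD274 to overlapping levels with both siRNAs, while the untreated siMondoA libraries were all below the untreated siControl libraries, and its interaction was 2.05 (SE 0.24, edgeR adjusted p = 2.70e-05). BATF2, an interferon-inducible leucine zipper transcription factor, was at 32.8, 27.9 and 45.6 CPM in siMondoA DXR libraries and 0.612, 1.09 and 1.03 CPM in untreated siMondoA libraries, against 8.92, 5.12 and 7.096 CPM in siControl DXR libraries and 1.34, 0.866 and 0.8296 CPM in untreated siControl libraries. Here the siRNAs overlapped in untreated cells and separated in DXR (interaction 2.49, SE 0.41, adjusted p = 0.000647). GCH1, the first enzyme of tetrahydrobiopterin synthesis, had an interaction of 2.08 (SE 0.39, adjusted p = 0.00223), with DXR responses of 3.02 with siMondoA and 0.94 with siControl. C3AR1, the receptor of the complement fragment C3a, had responses of 2.85 with siMondoA and 1.16 with siControl (interaction 1.69, SE 0.30, adjusted p = 0.00133).

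ARSI and PLEKHG4B also belong to these 12 genes, as do BRIP1, MASTL, BRCA2 and DMAC2, described with their groups. ARSI, which encodes an arylsulfatase, was at 3.48, 2.48 and 1.87 CPM in siMondoA DXR libraries and 2.56, 2.06 and 1.57 CPM in untreated siMondoA libraries, against 3.31, 4.25 and 2.93 CPM in siControl DXR libraries and 10.97, 11.5 and 13.4 CPM in untreated siControl libraries. Of the 4 groups untreated siControl alone was high, and untreated siMlx libraries were at 14.65, 16.06 and 12.68 CPM. ARSI fell under DXR with siControl (-1.78), and its response with siMondoA did not pass (0.33). Its interaction was 2.11 (SE 0.32, edgeR adjusted p = 0.000339). PLEKHG4B, a guanine nucleotide exchange factor, was at 4.55, 5.62 and 4.79 CPM in siMondoA DXR libraries and 1.84, 3.44 and 3.81 CPM in untreated siMondoA libraries, against 5.55, 2.56 and 3.98 CPM in siControl DXR libraries and 8.83, 9.22 and 8.98 CPM in untreated siControl libraries. DXR raised PLEKHG4B with siMondoA (0.72) and lowered it with siControl (-1.16), to overlapping levels (interaction 1.87, SE 0.31, adjusted p = 0.000696).

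Promoter windows of 250 bases before to 50 bases after the start site, from RefSeq on GRCh38.p14, were matched for 10523 of the tested genes. The interferon-stimulated response element was searched on both strands as TTTC followed by NN and a further TTTC. It stood in 2.9% of all windows (307 of 10523) and in 24 of 37 windows of the interferon list (64.9%), a list defined by such regulation. Of the genes with a higher interaction 48 of 644 held it (7.5%), and of those with a lower one 11 of 476 (2.3%). The stretches around it are shown for HERC5, CD274 and SAMD9, interferon-inducible genes described above whose interaction passed as higher, each 5′ to 3′ on the gene's strand with the element in capitals (read on the opposite strand in SAMD9). They lie at chr4:88456969-88457028 on the plus strand, chr9:5450309-5450368 on the plus strand and chr7:93118081-93118140 on the minus strand.
HERC5: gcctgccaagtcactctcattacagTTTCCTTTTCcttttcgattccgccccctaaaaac
CD274: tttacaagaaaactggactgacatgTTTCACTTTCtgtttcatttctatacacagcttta
SAMD9: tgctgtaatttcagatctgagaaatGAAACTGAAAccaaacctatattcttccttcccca
The windows of HERC5 and CD274 held 3 and 2 matches, and capitals mark only the first. In both stretches a further match starts within the capitals and runs into the lower-case bases. A match is a description of the sequence, and no binding was measured.

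**Figure D2:**
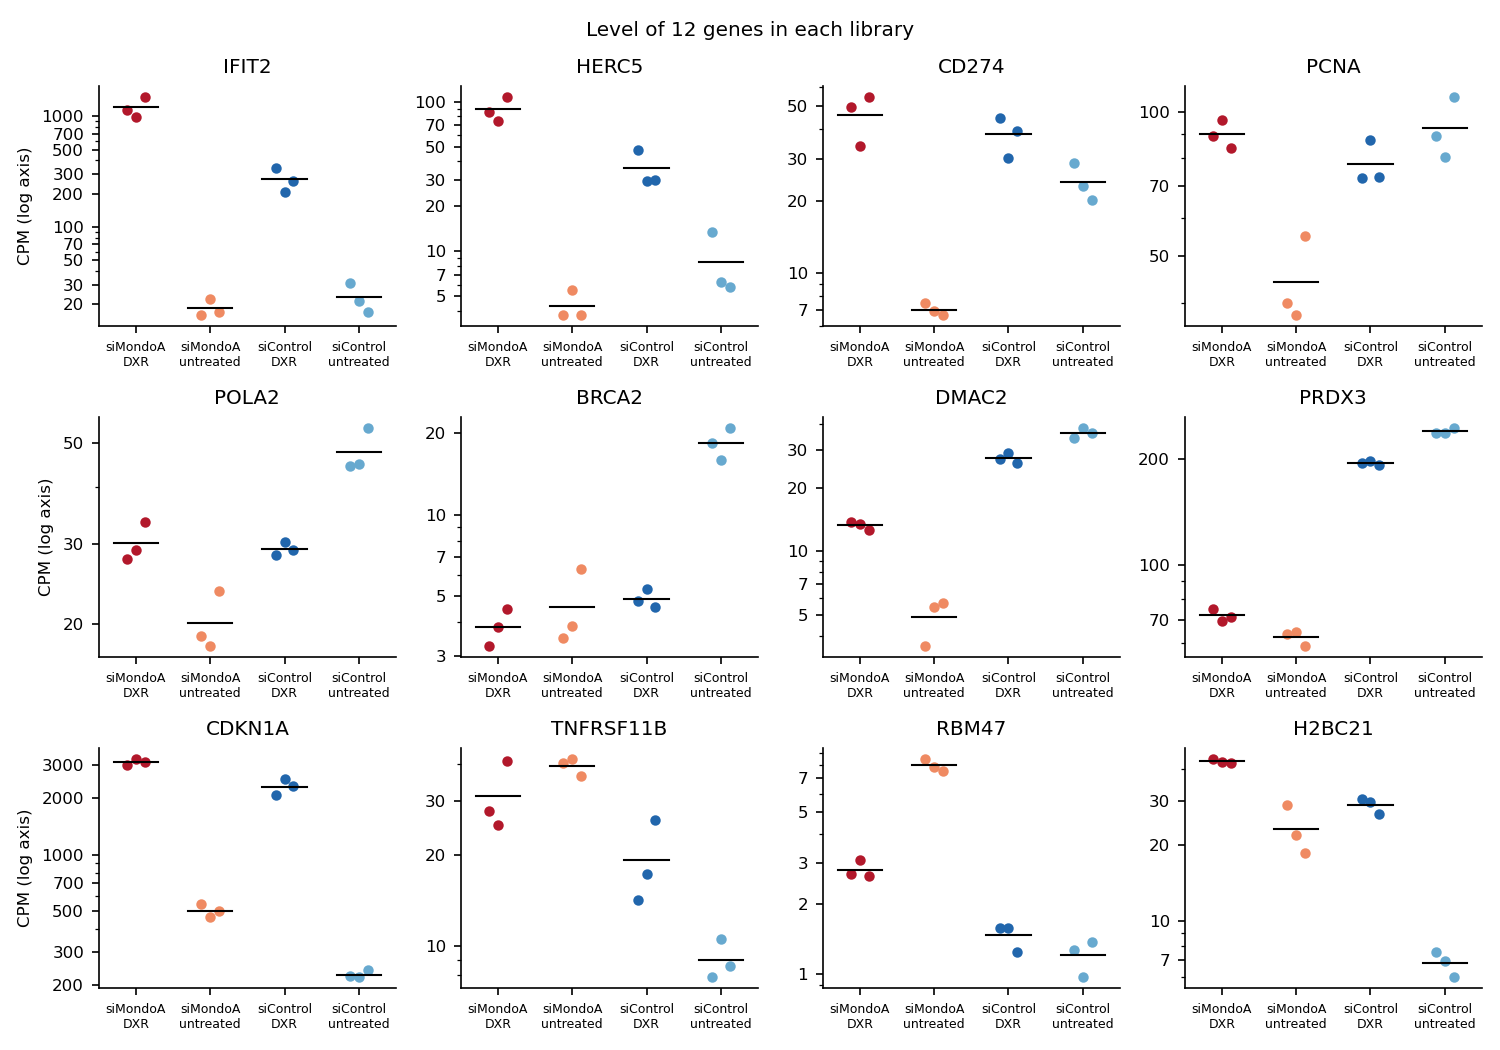
CPM on a log axis in each library for 12 genes, with siMondoA DXR, siMondoA untreated, siControl DXR and siControl untreated from left to right; points are libraries and bars are means of 3. IFIT2 separates the siRNAs in DXR, PCNA and POLA2 separate them in untreated cells and overlap in DXR, and CDKN1A is high in all 6 DXR libraries.

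Nearly all genes of DNA replication fell under DXR with siControl (47 of 49) and fewer with siMondoA (37 of 49), and 23 had a higher interaction. DXR lowered 28.6% of all tested genes with siControl and 28.0% with siMondoA. Of 49 tested members of the replication and E2F list, 23 passed with a higher interaction and 1 with a lower one, TK1, against 5.84% and 4.28% of all tested genes. The median interaction was 0.74, and the median DXR response was -0.73 with siMondoA and -1.58 with siControl. The knockdown lowered all 49 members in untreated cells (median -1.50) and 38 in DXR (median -0.74), and none was raised in either condition. Among all tested genes it lowered 23.3% in untreated cells and 13.9% in DXR. The list's mean log2 level relative to untreated siControl was -2.32, -2.04 and -2.25 in siMondoA DXR libraries, -1.74, -1.66 and -1.18 in untreated siMondoA libraries, -1.43, -1.35 and -1.49 in siControl DXR libraries, and -0.12, -0.12 and 0.23 in untreated siControl libraries. siMondoA DXR libraries were the lowest of the 4 groups in this list, and untreated siMondoA replicate 3 stood above its group. Without that replicate 35 members passed as higher, and 20 of the 24 called members passed in all 12 fits that left out 1 library.

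PCNA (chromosome 20, 5114953 to 5126626), the sliding clamp of DNA polymerases, was at 89.1, 95.99 and 84.1 CPM in siMondoA DXR libraries and 40.1, 37.7 and 55.1 CPM in untreated siMondoA libraries, against 72.9, 87.3 and 73.1 CPM in siControl DXR libraries and 88.9, 80.7 and 107 CPM in untreated siControl libraries. Only the untreated siMondoA libraries stood apart, at the low end. PCNA responded to DXR by 1.03 with siMondoA and by -0.25 with siControl, where it did not pass the test (interaction 1.28, SE 0.19, edgeR adjusted p = 0.000328). POLA2 (chromosome 11, 65261762 to 65305589), a subunit of the polymerase alpha and primase complex, was at 27.7, 29.1 and 33.5 CPM in siMondoA DXR libraries and 18.8, 17.8 and 23.6 CPM in untreated siMondoA libraries, against 28.4, 30.4 and 29.1 CPM in siControl DXR libraries and 44.6, 45.1 and 54.03 CPM in untreated siControl libraries. DXR raised POLA2 with siMondoA (0.59) and lowered it with siControl (-0.71), to overlapping levels (interaction 1.31, SE 0.15, adjusted p = 2.32e-05). MCM3, a subunit of the replicative helicase, was at 22.4, 26.1 and 22.3 CPM in siMondoA DXR libraries and 32.8, 35.3 and 44.1 CPM in untreated siMondoA libraries, against 40.5, 36.6 and 34.5 CPM in siControl DXR libraries and 107, 106 and 131 CPM in untreated siControl libraries. MCM3 fell with both siRNAs, by less with siMondoA (-0.66) than with siControl (-1.63), and its interaction was 0.97 (SE 0.17, adjusted p = 0.00127). POLE, the catalytic subunit of polymerase epsilon, had an interaction of 0.70 (SE 0.12, adjusted p = 0.00128). Across the list's other called members the helicase subunits MCM2 (1.15), MCM4 (0.81), MCM5 (0.74) and MCM6 (0.80), the origin licensing factor CDT1 (0.99), the GINS subunits GINS1 (1.44) and GINS3 (0.98), and POLA1 (1.05) were higher. The flap nuclease FEN1 (0.92), the ligase LIG1 (0.96), the histone chaperone subunits CHAF1A (1.08) and CHAF1B (0.91) and the transcription factor E2F1 (0.91) were higher as well. TK1, thymidine kinase, had an interaction of -0.69. RBL1, which encodes the RB relative p107, had an interaction of 1.20 (SE 0.26, adjusted p = 0.00565), with DXR responses of -0.62 with siMondoA and -1.82 with siControl.

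Words of the E2F site were searched on both strands of the same windows as TTTGGCGC, TTTGCCGC, TTTCGCGC and TTTCCCGC. They stood in 5.3% of all windows (562 of 10523), in 21 of 41 windows of the replication list (51.2%), in 10.6% of windows of genes with a higher interaction and in 4.2% with a lower one. The stretches of POLA2, PCNA and MCM3 are shown as replication genes whose interaction passed, each 5′ to 3′ on the gene's strand with the word in capitals (read on the opposite strand in PCNA). They lie at chr11:65261884-65261941 on the plus strand, chr20:5126649-5126706 on the minus strand and chr6:52284884-52284941 on the minus strand.
POLA2: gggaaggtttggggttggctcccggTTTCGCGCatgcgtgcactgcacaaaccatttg
PCNA: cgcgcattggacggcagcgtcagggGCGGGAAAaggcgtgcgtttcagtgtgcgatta
MCM3: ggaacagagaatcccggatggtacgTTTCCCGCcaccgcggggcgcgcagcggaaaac
The MCM3 window held 2 such words, and capitals mark only the first. Of the higher members of the replication list with a window, 13 of 19 held such a word. In the list of break and crosslink repair genes, described next, 7 of 34 windows held one (20.6%). Among that list's higher members it was 1 of 12 (8.3%). The replication list was chosen to cover DNA replication and E2F control, so its share is no separate evidence. A match shows the letters and no binding.

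Genes of double-strand break and crosslink repair showed the same direction. Of 41 tested members 14 passed as higher and none as lower, against 5.84% and 4.28% of all tested genes, with a median interaction of 0.59 and median DXR responses of -0.35 with siMondoA and -1.03 with siControl. Without untreated siMondoA replicate 3 the count was 22. BRIP1 (chromosome 17, 61681266 to 61863521), the helicase FANCJ of crosslink repair, was at 22.6, 17.6 and 28.9 CPM in siMondoA DXR libraries and 14.5, 12.7 and 16.1 CPM in untreated siMondoA libraries, against 23.6, 20.5 and 20.9 CPM in siControl DXR libraries and 47.9, 46.04 and 42.99 CPM in untreated siControl libraries. BRIP1 rose under DXR with siMondoA (0.68) and fell with siControl (-1.08), and the DXR libraries overlapped between siRNAs (interaction 1.76, SE 0.18, edgeR adjusted p = 8.71e-06). BRCA2 (chromosome 13, 32315474 to 32400266), a mediator of homologous recombination, was at 3.26, 3.85 and 4.46 CPM in siMondoA DXR libraries and 3.51, 3.86 and 6.29 CPM in untreated siMondoA libraries, against 4.79, 5.32 and 4.56 CPM in siControl DXR libraries and 18.5, 15.9 and 20.96 CPM in untreated siControl libraries. Of the 4 groups only untreated siControl held BRCA2 at a high level, and untreated siMlx libraries were at 13.59, 14.74 and 17.43 CPM. The DXR response of BRCA2 passed with siControl (-1.92) and not with siMondoA (-0.22). Its interaction was 1.70 (SE 0.26, edgeR adjusted p = 0.000385). RBBP8, the end-resection factor CtIP, had an interaction of 0.94 (SE 0.15) and RIF1, which limits resection, one of 0.69 (SE 0.11). MASTL, the Greatwall kinase that governs mitotic entry and is outside this list, rose under DXR with siMondoA (0.95) and fell with siControl (-0.76; interaction 1.71, SE 0.19, adjusted p = 1.65e-05).

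Mitotic genes behaved otherwise. Of 46 tested G2/M and mitosis genes 1 passed as higher and 1 as lower, at or under the shares of all tested genes, with a median interaction of -0.11 that ran from -0.32 to 0.19 when single libraries were left out. Without untreated siMondoA replicate 3 the higher members numbered 5. They fell strongly under DXR with siMondoA (median -2.14, 45 members past the test) and with siControl (median -1.99, 46 members). DXR lowered 28.0% of all tested genes with siMondoA and 28.6% with siControl. MAD2L1, a spindle checkpoint protein, had an interaction of 0.96 (SE 0.23, edgeR adjusted p = 0.0104). KIF20A, a kinesin of cytokinesis, was at 5.84, 10.2 and 7.77 CPM in siMondoA DXR libraries and 55.99, 61.1 and 78.6 CPM in untreated siMondoA libraries, against 21.7, 27.5 and 27.4 CPM in siControl DXR libraries and 109.8, 112 and 135 CPM in untreated siControl libraries. Its interaction of -0.81 (SE 0.22, adjusted p = 0.0224) ended in 5 of the 12 fits that left out 1 library, and on the CPM scale the difference had the opposite sign (36.2 CPM). MKI67, a proliferation marker, did not pass (-0.52, SE 0.49, adjusted p = 0.562), nor did LMNB1, which encodes lamin B1 (-0.37, SE 0.27, adjusted p = 0.446), and both fell under DXR with either siRNA. Of the 13 nuclear lamina genes tested, TMPO alone passed (0.64, higher, and lost in 5 of the 12 fits).

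**Figure D3:**
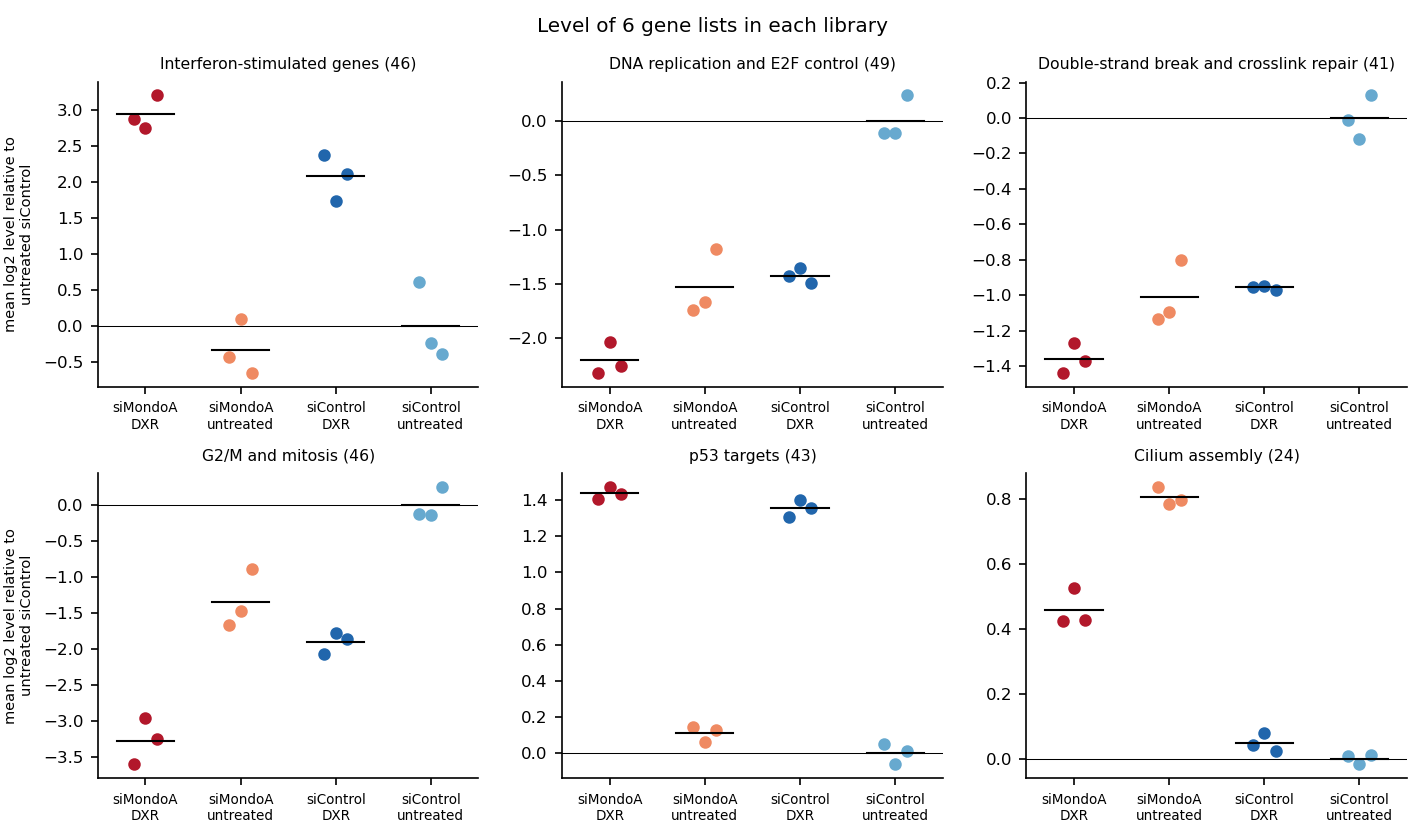
Mean log2 level of the tested members of 6 lists in each library, with untreated siControl averaging 0 (y axis), with siMondoA DXR, siMondoA untreated, siControl DXR and siControl untreated from left to right; points are libraries and bars are group means. Interferon-stimulated genes reach 3.21 with siMondoA and DXR, replication and mitosis genes are lowest in siMondoA DXR libraries, and p53 targets are high in all 6 DXR libraries.

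The p53 response to DXR was of similar median size with both siRNAs. Of 43 tested p53 targets, 40 rose under DXR with siMondoA and 39 with siControl, with median responses of 1.28 with siMondoA and 1.35 with siControl. DXR raised 26.2% of all tested genes with siMondoA and 28.1% with siControl. In the interaction 3 passed as higher and 6 as lower (3 lower without siControl DXR replicate 2), against 5.84% and 4.28% of all tested genes, with a median of -0.018. These are 6.98% and 13.95% of the list. CDKN1A (chromosome 6, 36676460 to 36687339), which encodes the cell cycle inhibitor p21, was at 3012, 3250 and 3138 CPM in siMondoA DXR libraries and 543, 462 and 496 CPM in untreated siMondoA libraries, against 2079, 2534 and 2322 CPM in siControl DXR libraries and 223, 220 and 241 CPM in untreated siControl libraries. siMondoA libraries were above siControl libraries in both conditions, by 0.44 in DXR and 1.13 in untreated cells. The fold response was smaller with siMondoA (2.65) than with siControl (3.34), an interaction of -0.70 (SE 0.11, edgeR adjusted p = 0.000379), whereas on the CPM scale the rise was larger with siMondoA by 549 CPM. PMAIP1, the BH3-only protein NOXA, was at 77.8, 51.1 and 91.6 CPM in siMondoA DXR libraries and 13.9, 14.9 and 17.1 CPM in untreated siMondoA libraries, against 46.7, 34.9 and 40.5 CPM in siControl DXR libraries and 18.4, 15.4 and 18.3 CPM in untreated siControl libraries (interaction 1.05, SE 0.23, adjusted p = 0.00584). NOXA transcripts separated the siRNAs in DXR and not in untreated cells. PHLDA3, an inhibitor of AKT, had an interaction of -0.34 (edgeR adjusted p = 0.0132, or 0.0675 without siControl DXR replicate 2) and PTP4A1, a phosphatase, one of -0.46 (adjusted p = 0.00630). MDM2, the ubiquitin ligase of p53, stood at 0.28 (adjusted p = 0.0822), and CDKN2A, which encodes p16 and ARF, at 0.00072 (adjusted p = 0.999). GDF15 had 5, 3, 10 and 6 counts in siMondoA DXR, siMondoA untreated, siControl DXR and siControl untreated libraries and was not tested.

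Regulators of apoptosis moved in both directions. Of 27 tested members of the BCL2 and TNF receptor families 3 passed as higher, PMAIP1 and BCL2 among them (5 higher without siMondoA DXR replicate 2), and 5 as lower. That is 11.1% higher and 18.5% lower, where all tested genes had 5.84% and 4.28%. BCL2L1, which encodes the survival protein BCL-XL, had a lower interaction (-0.44, edgeR adjusted p = 0.00794), and so did BAK1, a pore-forming effector (-0.35, adjusted p = 0.00782).

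The 12 genes with the largest lower interactions were taken from those that passed in every fit leaving out 1 library. All 12 had passed as higher with siMondoA in untreated cells. By definition of a lower interaction, their siMondoA effect was lower in DXR. The untreated effect is a term of the interaction that chose these genes, so its direction is no separate evidence. TNFRSF11B (chromosome 8, 118923557 to 118952200), which encodes the decoy receptor osteoprotegerin, was at 27.8, 25.02 and 40.9 CPM in siMondoA DXR libraries and 40.2, 41.4 and 36.5 CPM in untreated siMondoA libraries, against 14.2, 17.3 and 26.04 CPM in siControl DXR libraries and 7.86, 10.5 and 8.55 CPM in untreated siControl libraries. DXR raised TNFRSF11B with siControl (1.11), and with siMondoA the response did not pass (-0.34; interaction -1.45, SE 0.28, edgeR adjusted p = 0.00248). RBM47 (chromosome 4, 40423267 to 40630875), an RNA-binding protein, was at 2.695, 3.09 and 2.64 CPM in siMondoA DXR libraries and 8.46, 7.85 and 7.496 CPM in untreated siMondoA libraries, against 1.58, 1.59 and 1.25 CPM in siControl DXR libraries and 1.27, 0.968 and 1.37 CPM in untreated siControl libraries. Untreated siMondoA libraries alone held RBM47 at this level (interaction -1.76, SE 0.29, adjusted p = 0.000636). LINC01123, a long noncoding RNA, fell under DXR with both siRNAs, by more with siMondoA (-2.35) than with siControl (-0.75; interaction -1.60, SE 0.25). H2BC21 (listed as HIST2H2BE), a histone H2B gene with close paralogues, was at 43.96, 42.6 and 42.5 CPM in siMondoA DXR libraries and 28.9, 22.03 and 18.6 CPM in untreated siMondoA libraries, against 30.6, 29.6 and 26.7 CPM in siControl DXR libraries and 7.52, 6.98 and 5.99 CPM in untreated siControl libraries (interaction -1.19, SE 0.17, adjusted p = 0.000223). H2BC21 was highest in siMondoA DXR libraries, and its rise under DXR was smaller with siMondoA in fold terms. TMEM134 (-1.19), CSMD3 (-1.58), TMEM132B (-1.45), the homeobox gene MEIS3 (-1.35), DEPP1 (listed as C10orf10, -1.31), a target of FOXO factors, and C17orf97 (-1.23) completed the lower genes with FANK1 and PIERCE1.

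Called cilium genes were all in this direction. Of 24 tested members (35 listed) 8 passed as lower and none as higher, against 4.28% and 5.84% of all tested genes, with a median interaction of -0.26. The count was 3 without siControl DXR replicate 2, and 5 without siControl DXR replicate 3, untreated siControl replicate 3 or untreated siMondoA replicate 1. Their median DXR response was -0.38 with siMondoA and -0.033 with siControl, and siMondoA raised 15 members in DXR and 19 in untreated cells. Among all tested genes siMondoA raised 10.9% in DXR and 23.3% in untreated cells. PIERCE1 (listed as C9orf116), a protein of the ciliary axoneme, was at 8.09, 7.29 and 6.22 CPM in siMondoA DXR libraries and 16.5, 15.4 and 13.4 CPM in untreated siMondoA libraries, against 3.82, 3.33 and 4.51 CPM in siControl DXR libraries and 3.04, 3.16 and 4.004 CPM in untreated siControl libraries. PIERCE1 was above siControl in all siMondoA libraries and fell under DXR with siMondoA (interaction -1.26, SE 0.23, edgeR adjusted p = 0.00182). FANK1 was at 8.87, 8.41 and 6.33 CPM in siMondoA DXR libraries and 9.18, 8.69 and 6.17 CPM in untreated siMondoA libraries, against 4.94, 4.86 and 3.45 CPM in siControl DXR libraries and 1.37, 1.68 and 0.902 CPM in untreated siControl libraries. DXR raised FANK1 with siControl and left the siMondoA libraries overlapping (interaction -1.80, SE 0.34, adjusted p = 0.00234). BBS2 (-0.39) and TTC8 (-0.46), subunits of the BBSome, which carries membrane proteins into and out of cilia, passed as lower too, although BBS2 had an adjusted p of 0.0584 (edgeR) without siControl DXR replicate 2.

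Of 38 tested secreted factors of senescent cells, 1 passed as higher (2.63%, against 5.84% of all tested genes) and 5 as lower (13.2%, against 4.28%). FGF2 (chromosome 4, 122826708 to 122898236), a fibroblast growth factor, was at 142, 129 and 187 CPM in siMondoA DXR libraries and 33.2, 36.9 and 31.7 CPM in untreated siMondoA libraries, against 271, 268 and 300.2 CPM in siControl DXR libraries and 154, 147 and 143 CPM in untreated siControl libraries. Within each condition FGF2 was lower in every siMondoA library than in any siControl library, and its fold rise under DXR was larger with siMondoA (2.17) than with siControl (0.92; interaction 1.25, SE 0.14, edgeR adjusted p = 1.51e-05), while the rise in CPM was smaller (-12.8 CPM). IGFBP3, which binds insulin-like growth factors, reached overlapping DXR levels from a higher untreated level with siMondoA (interaction -0.63, SE 0.10, adjusted p = 0.000490). IL6, an inflammatory cytokine, did not pass (0.23, SE 0.27, adjusted p = 0.665). Of 21 NF-kB targets TNFAIP3, which restrains NF-kB signalling, alone passed in the fit to all libraries (0.87, SE 0.19, adjusted p = 0.00739). The higher members numbered 3 without siControl DXR replicate 1 or siMondoA DXR replicate 2 and 2 without untreated siControl replicate 2, and 1 member passed as lower without replicate 3 of siControl DXR or of siMondoA DXR.

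Autophagy and lysosome genes passed as lower in 8.33% and 7.84% of tested members, against 4.28% of all tested genes, and as higher in 4.17% and 0%, against 5.84%. Of 48 tested autophagy genes 2 passed as higher and 4 as lower (1 without siControl DXR replicate 2, and 2 without untreated siMondoA replicate 1 or 2), with a median of -0.11. Of 51 lysosomal genes none passed as higher and 4 as lower (2 without siControl DXR replicate 2, siMondoA DXR replicate 3 or untreated siMondoA replicate 1), with a median of -0.070. STX17 (chromosome 9, 99906633 to 99970341), the SNARE that fuses autophagosomes with lysosomes, was at 50.6, 50.8 and 55.4 CPM in siMondoA DXR libraries and 36.8, 34.9 and 31.6 CPM in untreated siMondoA libraries, against 62.6, 60.6 and 62.5 CPM in siControl DXR libraries and 61.8, 55.4 and 56.2 CPM in untreated siControl libraries. siMondoA libraries lay below siControl libraries in both conditions, and STX17 rose under DXR with siMondoA (interaction 0.50, SE 0.10, edgeR adjusted p = 0.00378). ATG7, the E1-like enzyme of autophagy, had an interaction of 0.43 (adjusted p = 0.0156), WIPI2, which reads phosphoinositides on forming autophagosomes, one of -0.27 (adjusted p = 0.0121), and ATG4A, a protease of ATG8 proteins, one of -0.37 (adjusted p = 0.0186). Without 1 library the adjusted p (edgeR) reached 0.0549 for ATG7 (untreated siMondoA replicate 2), 0.0641 for WIPI2 and 0.0737 for ATG4A (both siControl DXR replicate 2). Among lysosomal genes HEXA (-0.45) and IDS (-0.35), both hydrolases, passed as lower. RUBCN (listed as KIAA0226), which encodes the autophagy inhibitor Rubicon, did not pass (0.29, SE 0.13, adjusted p = 0.172), nor did TFEB, a regulator of lysosomal genes (0.15, SE 0.15, adjusted p = 0.617).

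Of 77 tested oxidative phosphorylation subunits 2 passed as higher (2.60%) and 1 as lower (1.30%), under the 5.84% and 4.28% of all tested genes. Of 33 genes of mitochondrial dynamics and mitophagy 1 passed as higher (3.03%) and 2 as lower (6.06%). PRDX3 (chromosome 10, 119167703 to 119178833), the mitochondrial peroxiredoxin, was at 75.01, 69.5 and 71.4 CPM in siMondoA DXR libraries and 63.9, 64.6 and 58.8 CPM in untreated siMondoA libraries, against 194, 197 and 192 CPM in siControl DXR libraries and 236, 237 and 244 CPM in untreated siControl libraries. Every siMondoA library was below every siControl library, with a knockdown effect of -1.43 in DXR and -1.94 in untreated cells. DXR raised PRDX3 with siMondoA (0.20) and lowered it with siControl (-0.30), an interaction of 0.50 (SE 0.073, edgeR adjusted p = 0.000263) that passed in all 12 fits leaving out 1 library. DMAC2 (listed as ATP5SL, chromosome 19, 41431318 to 41440717), an assembly factor of respiratory complex I, was at 13.8, 13.5 and 12.6 CPM in siMondoA DXR libraries and 3.56, 5.46 and 5.68 CPM in untreated siMondoA libraries, against 27.4, 29.1 and 26.04 CPM in siControl DXR libraries and 34.2, 38.3 and 36.2 CPM in untreated siControl libraries. DMAC2 followed the same order of groups, with responses of 1.44 with siMondoA and -0.40 with siControl and an interaction of 1.83 (SE 0.15, adjusted p = 9.92e-07). NDUFA9, a complex I subunit, had an interaction of 0.41 (adjusted p = 0.00323). BCL2L13, a mitophagy receptor, had one of 0.54 (adjusted p = 0.000102), and BNIP3, another, one of -0.34 (adjusted p = 0.0179). MIEF2, an adaptor of mitochondrial fission, stood at -0.53 (adjusted p = 0.000850).

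The MAX-MLX network had 1 of 11 tested members higher (9.09%, against 5.84% of all tested genes) and 5 lower (45.5%, against 4.28%), MLXIP included. Leaving out any library but untreated siMondoA replicate 1 brought the lower ones to between 1 and 3. MAX, the common partner of MYC and the MXD proteins, was at 58.3, 53.3 and 61.2 CPM in siMondoA DXR libraries and 35.2, 36.8 and 37.9 CPM in untreated siMondoA libraries, against 69.7, 64.04 and 68.3 CPM in siControl DXR libraries and 56.3, 58.97 and 50.1 CPM in untreated siControl libraries. MAX was lower with siMondoA in both conditions and more so in untreated cells (interaction 0.36, SE 0.093, edgeR adjusted p = 0.0174). MNT (-0.40), MXD4 (-0.34) and MXI1 (-0.65), repressors that pair with MAX, passed as lower. MXD4 was lost in 10 and MXI1 in 5 of the 12 fits that left out 1 library, and MAX without untreated siMondoA replicate 1 (adjusted p = 0.0526, edgeR). Of 19 glucose-responsive targets of MondoA or its relative ChREBP 2 passed as higher, KLF11 (0.89) and ACACB (1.14), and 1 as lower, ARRDC2 (-0.49); each was lost in 4 to 6 of these fits.

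In glucose metabolism 1 of 26 tested glycolysis genes passed as higher (3.85%, against 5.84% of all tested genes) and 3 as lower (11.5%, against 4.28%). PGAM1, phosphoglycerate mutase, was at 876, 847 and 881 CPM in siMondoA DXR libraries and 559.7, 549.6 and 534 CPM in untreated siMondoA libraries, against 1140, 1110 and 1105 CPM in siControl DXR libraries and 1082, 1073 and 1071 CPM in untreated siControl libraries. Untreated siMondoA libraries held lower PGAM1 levels than any other group (interaction 0.61, SE 0.067, edgeR adjusted p = 1.43e-05). SLC2A3, which encodes the glucose transporter GLUT3, was at 107, 102 and 104 CPM in siMondoA DXR libraries and 225, 217 and 199 CPM in untreated siMondoA libraries, against 78.8, 84.7 and 90.5 CPM in siControl DXR libraries and 109, 120.4 and 102 CPM in untreated siControl libraries. GLUT3 transcripts were highest in untreated siMondoA cells and fell further under DXR there (interaction -0.65, SE 0.091, adjusted p = 0.000169). Of 28 tested HIF targets none passed as higher and 6 as lower (21.4%, against 4.28% of all tested genes), with a median of -0.19. The lower HIF members numbered 4 to 6 when single libraries were left out, and 3 passed in all 12 of these fits. ANGPTL4, an inhibitor of lipoprotein lipase, was at 47.2, 48.8 and 47.1 CPM in siMondoA DXR libraries and 33.5, 27.3 and 36.5 CPM in untreated siMondoA libraries, against 76.02, 67.1 and 53.9 CPM in siControl DXR libraries and 23.6, 19.1 and 24.4 CPM in untreated siControl libraries. siMondoA placed ANGPTL4 below siControl in DXR and above it in untreated cells (interaction -0.98, SE 0.20, adjusted p = 0.00418).

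Of all tested genes, 5.84% passed as higher and 4.28% as lower, beside which the counts of the other lists stand. Of 38 extracellular matrix genes 4 passed as higher and none as lower, THBS1, which encodes thrombospondin 1, among them (0.88, SE 0.22, edgeR adjusted p = 0.0154). The 4 matrix genes became 2 in 8 of the 12 fits that left out 1 library. Of 38 ribosome biogenesis genes 4 passed as higher, with a highest value of 0.39 for GAR1 (2 without untreated siControl replicate 3, siMondoA DXR replicate 2 or untreated siMondoA replicate 2), and of 76 cytosolic ribosomal proteins none passed in either direction. Of 38 ATF4 targets 3 passed as higher, with the folate enzyme gene MTHFD2 at 0.70 (adjusted p = 0.00144), PSAT1 at 0.47 and ATF3, lost in 9 of the 12 fits, at 0.86. Of 40 antioxidant genes PRDX3 passed as higher and PRDX4 (-0.27) and TKT (-0.28) as lower, the last 2 lost in 9 and 7 of the 12 fits. Of 32 sterol and fatty acid genes 2 passed as higher, STARD4 (0.75) and FADS1 (0.33). Of 24 immediate early genes 3 passed as higher, ATF3, FOSL1 (0.66) and KLF6 (0.39), and EGR2 as lower (-1.49), each lost in 6 to 9 of the 12 fits. Of 12 clustered histone genes 1 passed as higher and 2 as lower (none higher without siControl DXR replicate 1, untreated siControl replicate 3, siMondoA DXR replicate 2 or untreated siMondoA replicate 1 or 2, and 3 without untreated siMondoA replicate 3), and of 10 CDK inhibitors and RB relatives RBL1 passed as higher and CDKN1A as lower. SOX9 (0.33) was the only called member of the pigment epithelium, fibroblast and blood or endothelial marker lists, of which 9, 9 and 7 members were tested. Summed pigment epithelium markers ran from 1459 to 1532 CPM in siMondoA DXR libraries and 740 to 939 CPM in untreated siMondoA libraries, against 1331 to 1390 CPM in siControl DXR libraries and 686 to 872 CPM in untreated siControl libraries, and fibroblast markers from 1165 to 1526 CPM and 509.5 to 657 CPM with siMondoA, against 1121 to 1377 CPM and 553.9 to 665.3 CPM with siControl, in DXR and in untreated libraries. In siMondoA libraries the pigment epithelium sum was mostly KRT8 (750 CPM in DXR, 373 CPM untreated) and KRT18 (547 and 342 CPM). SOX9 was also higher in DXR, while OTX2 (12.7 and 21.3 CPM), PAX6 (16.3 and 21.7 CPM), MERTK and MITF were lower. Fibroblast markers also went both ways, with ACTA2 higher in DXR (513 and 104 CPM) and PDGFRA lower (16.7 and 32.7 CPM). The part of these markers in the results was not tested.

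**Figure D4:**
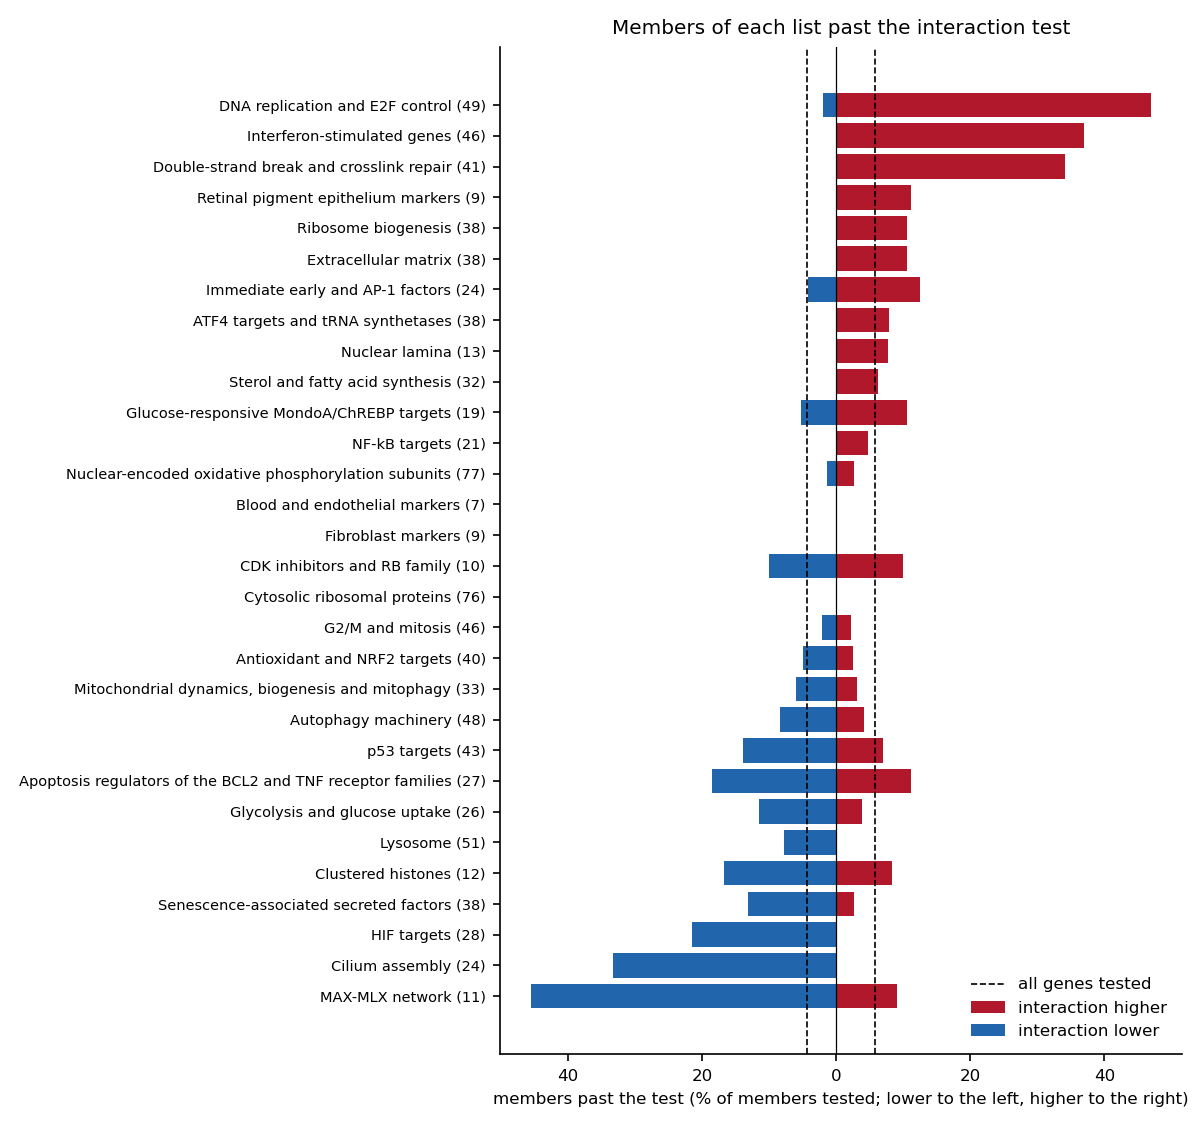
Share of tested members of each of 30 lists past the interaction test (x axis, percent), with higher members to the right and lower members to the left; numbers in parentheses are members tested, and dashed lines mark all tested genes (5.84% higher, 4.28% lower). The replication list (23 of 49), the interferon list (17 of 46) and the repair list (14 of 41) extend farthest to the right, and the MAX-MLX (5 of 11) and cilium (8 of 24) lists to the left.

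Whether these interactions also arose with siMlx was asked by subtracting the DXR response with siMlx from that with siMondoA, a contrast that uses no siControl library. It passed for 4007 genes (29.3%), 15.0% higher and 14.3% lower with siMondoA. Among them were 655 of the 798 genes higher and 414 of the 586 genes lower in the siMondoA interaction. The siMondoA response is a term of both contrasts. Counts of called genes past this test are therefore partly set by how the genes were chosen, and are not separate evidence. Of the 24 genes with the largest interactions, all but RBM47 and TMEM134 passed. IFIT2 was at 26.1, 22.7 and 18.9 CPM in siMlx DXR libraries and 2.98, 2.88 and 3.76 CPM in untreated siMlx libraries, with a siMlx interaction of -0.72, and the difference between the interactions was 3.21 (SE 0.42, edgeR adjusted p = 1.24e-05). IFIT2 was below siControl in siMlx libraries of both conditions. BRIP1 was at 14.6, 12.99 and 13.5 CPM in siMlx DXR libraries and 37.95, 40.4 and 45.4 CPM in untreated siMlx libraries, a siMlx interaction of -0.52 and a difference of 2.28 (SE 0.19, adjusted p = 8.49e-08). The siMondoA and siMlx interactions share the siControl libraries, and their own values stand side by side. TNFRSF11B had values of opposite sign, with an interaction of -1.45 for siMondoA and 1.41 for siMlx. RBM47 (-1.76 with siMondoA, -1.29 with siMlx, difference adjusted p = 0.222), CDKN1A (-0.70 with siMondoA, -0.79 with siMlx, difference adjusted p = 0.553) and THBS1 (0.88 with siMondoA, 0.77 with siMlx, difference adjusted p = 0.758) were not shown to differ between the siRNAs. Of the called members, 22 of 24 in the replication list, 13 of 14 in the repair list, 9 of 17 in the interferon list and all 8 in the cilium list passed the test of the difference.

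**Figure D5:**
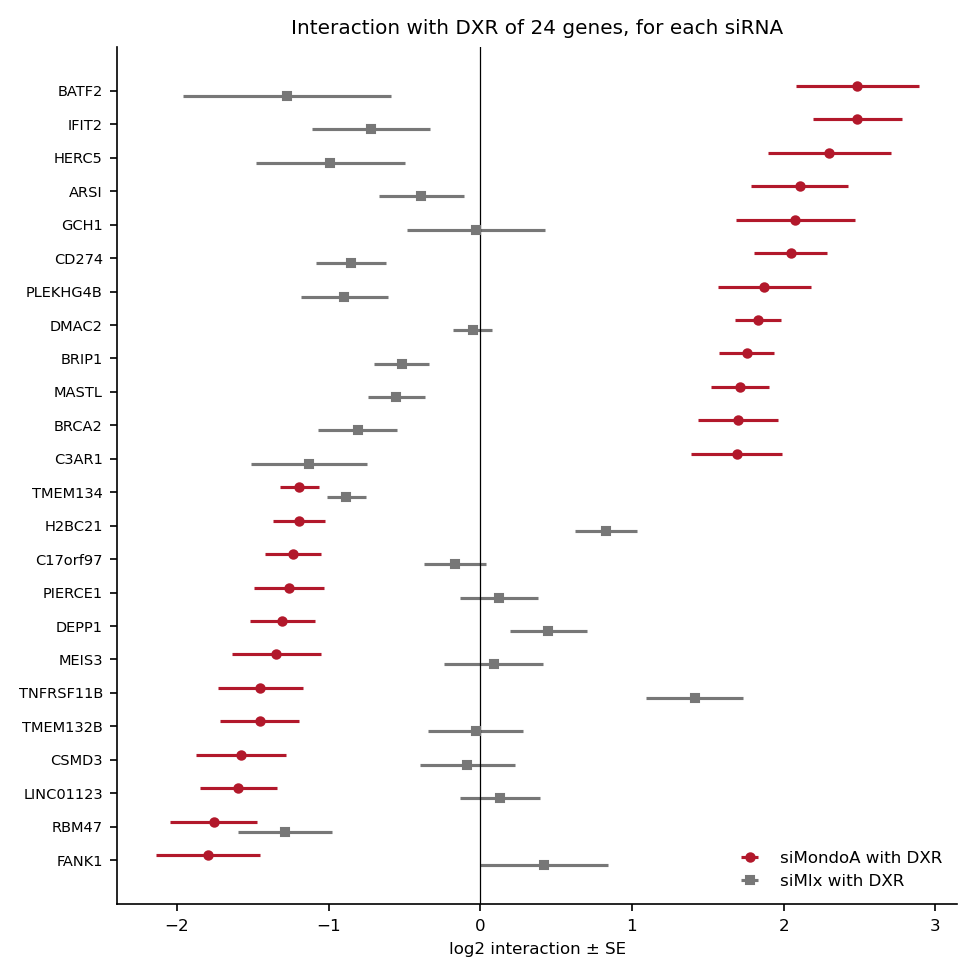
Log2 interaction with DXR (x axis, ± SE) of the 24 genes with the largest interactions that passed in every fit leaving out 1 library, for siMondoA (red circles) and siMlx (grey squares). The siMondoA values, which chose the genes, run from -1.80 to 2.49, and siMlx values lie near 0 or on the other side of it except for RBM47 and TMEM134.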

How the data were processed

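RNA sequencing libraries of RPE-1 cells (18, in 6 groups of 3) were re-analysed, starting at the authors' gene tables. Libraries were made from total RNA with a stranded mRNA kit, per the labels' protocols. Reads were aligned to GRCh38 with TopHat2 2.1.1 after bcl2fastq, per the submitters' processing notes. The counting program, annotation and strand setting, all items not given in the sources used here, leave overlapping, antisense and paralogous genes uncertain. The deposited counts are whole numbers per gene and were tested as they are. The RPKM values deposited by the authors imply a gene length that is whole within 0.01 bases for 24845 of 24846 genes, and entered no test. Of the 33121 names, 23574 were current symbols, 1621 older ones and 7926 unmatched (0.297% of counts).

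The counts were fitted in edgeR 4.0.16 (R 4.3.3) with TMM scaling, filterByExpr and the quasi-likelihood test, with 1 term for each of the 6 groups and 12 residual degrees of freedom; the biological coefficient of variation was 7.42%. Standard errors are the log2 fold change divided by the root of its F. Total counts were 15503423 to 29219280, and 3 counts is the floor used for a group at 0; depth covers counting error only. List levels are means of log2(CPM + 0.5). Genes named are 14 fixed genes, up to 4 members with the smallest p in each list, and the 12 genes each way with the largest interaction among those of at least 5 CPM in a group that passed in all 12 fits leaving out 1 library. Other list members named were chosen after their values were seen. The members and lists were chosen with earlier results of these data known, and the lists' directions are no independent evidence. The fit was tested on simulated counts. Alternatives were DESeq2 1.42.0, other scalings and filters, the 12 libraries alone, a replicate block, CPM differences and leaving out libraries. Promoters came from RefSeq (GRCh38.p14) and gene coordinates from GENCODE 29. Some members of the lists are not reported here. Replicate numbers are shared across groups in the labels. Deviations from the group means of same-numbered siMondoA and siControl libraries within a condition correlated from 0.101 to 0.33 (6 of 6 pairs over 0.1). The numbers were therefore taken to pair these libraries within a condition, as read from the data. Untreated siControl replicate 1, however, correlated more with untreated siMondoA replicate 2 (0.122) than with its replicate 1 (0.115). The main fit does not use this pairing.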

Additional observations from a re-analysis of the deposited data

Results flagged for a closer look

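For 22 of the 24 genes with the largest siMondoA interactions, the DXR response with siMondoA differed from that with siMlx past the test (edgeR's quasi-likelihood test, adjusted p from 7.29e-08 to 0.00177). The difference is the siMondoA response minus the siMlx response and uses no siControl library, but the siMondoA response also chose the genes, so its sign is partly set by that choice. Among interferon-inducible genes it was 3.21 for IFIT2, 3.76 for BATF2, 3.29 for HERC5, 2.11 for GCH1 and 2.90 for CD274. For C3AR1 it was 2.82, for ARSI 2.50 and for PLEKHG4B 2.77. Repair and cell cycle genes differed by 2.28 (BRIP1), 2.51 (BRCA2) and 2.26 (MASTL), and DMAC2, listed as ATP5SL, by 1.88.

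In the other direction it was -2.22 for FANK1, -1.38 for PIERCE1 (listed as C9orf116), -1.73 for LINC01123, -1.49 for CSMD3 and -1.42 for TMEM132B. TNFRSF11B, the osteoprotegerin gene, had the most negative value of these, -2.86, and H2BC21 (listed as HIST2H2BE) stood at -2.02. MEIS3 was at -1.43, DEPP1 (listed as C10orf10) at -1.76 and C17orf97 at -1.07.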

How the results depend on the processing

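The count of 1384 genes ran from 918 to 1384 when single libraries were left out, with 541 to 805 higher and 316 to 579 lower. The smaller same-sign responses ran from 260 to 494, the larger ones from 246 to 359 and the opposite ones from 394 to 570. List counts ran from 19 to 35 (replication, higher), 10 to 22 (repair, higher), 3 to 22 (interferon, higher) and 3 to 8 (cilium, lower). Without a low-count filter 1663 genes passed, with 37 replication and 44 interferon members; DESeq2 called 1504 genes and 8 interferon members. In an alternative chosen after seeing the data, leaving out untreated siControl replicate 1 and untreated siMondoA replicate 3 together, 1182 genes passed, with 225 larger same-sign responses and 36 replication, 2 interferon and 5 cilium members. The cause was not tested. On the CPM scale, 4 called named genes had the opposite sign: MLXIP (2.61), CDKN1A (549), KIF20A (36.2) and FGF2 (-12.8); 5 named genes that did not pass had it too.

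With a replicate block 1818 genes passed (1016 higher, 802 lower), with 30 replication, 18 repair, 24 interferon and 9 cilium members; among named genes it ended no call and added 12. Deviations of same-numbered libraries correlated from -0.097 to 0.33 (10 of 18 pairs over 0.1), against 1 of 36 pairs with different numbers, and 9 of 12 libraries were closest to their own number. Not every pair across the 4 groups was over 0.1, the rule set before calls were compared, so the main fit has no block. The interaction is also the siMondoA effect in DXR minus that in untreated cells, and the main fit does not use the pairing within a condition. A separate block in each condition was not fitted. With the replicate block shared by all groups, chosen for these effects after seeing the data, the siMondoA effect in DXR passed for 3830 genes (3390 without it). The siMondoA effect in untreated cells passed for 6734 (6375 without it). Depth limits genes with few counts, such as ARRDC4 and GDF15.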
